A study of Mus musculus with 36 samples.

Results

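The 10 genes described here encode transcription factors of the Schwann cell lineage. They were chosen by name for their known roles, with earlier results of these data known, and the rule uses no measured value: Sox10, Foxd3, Tfap2a and Sox2, which specify the lineage or keep its precursors, and Egr2, Pou3f1, Pou3f2, Zeb2, Nfatc4 and Tead1, which act in the step from promyelinating to myelinating cells. They are 10 of the 52636 genes in the count table, and 9 of them passed the filter on low counts that left 15330 genes for testing; the exception was Tfap2a. RNA was sequenced from cells of S100β-GFP;NG2-dsRed mice. All mice carried both transgenes, so GFP reports activity of the S100b promoter and dsRed that of the promoter of Cspg4, the gene for NG2, and neither reports a cell's identity directly. Cells of diaphragm, pectoralis, forelimb and hindlimb muscles were sorted by fluorescence into S100β-GFP+;NG2-dsRed+ perisynaptic Schwann cells (PSCs), which cover the neuromuscular junction, single-labeled S100β-GFP+ cells, and single-labeled NG2-dsRed+ cells, which include pericytes. The methods give an age of P15 to P21 for the mice, while the upper age in the sample labels runs from P21 to P46, and each library holds the cells that could be sorted from 1 mouse. The table holds 9 libraries of PSCs, 8 of S100β-GFP+ cells and 10 of NG2-dsRed+ cells, and libraries are named here by the numbers in the labels.

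SOX10 is needed for neural crest cells to become Schwann cells and stays on in the lineage, where it acts with other factors on the genes of successive stages. In the promyelinating cell SOX10 and the POU factors Oct-6 (Pou3f1) and Brn2 (Pou3f2) turn on Egr2 (Krox20), which then drives the myelin genes with SOX10. SOX2 holds cells in an immature state and opposes myelination. PSCs are non-myelinating Schwann cells, whereas Schwann cells along motor axons in muscle form myelin.

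Counts on genes ran from 5221655 to 9592875 per library. Levels are given as CPM, counts per 1000000 of a library's total after TMM scaling, and ± is 1 SD. The sorted populations were set against marker lists, which were written with earlier results of these data known. The summed level of 12 Schwann cell lineage markers was 2917 to 3681 CPM in PSCs, 739 to 2087 CPM in S100β-GFP+ cells and 121 to 478 CPM in NG2-dsRed+ cells. For 10 markers of myelinating Schwann cells it was 2560 to 3532 CPM in PSCs and 1522 to 3767 CPM in S100β-GFP+ cells, ranges that overlapped. In NG2-dsRed+ cells that sum was 258 to 1074 CPM. The sort was gated on GFP and dsRed, and S100β-GFP+ libraries also held RNA of marker genes of other cell types. In them 9 fibroblast markers summed to 16450 to 34065 CPM against 1385 to 3699 CPM in PSCs, and 11 macrophage and leukocyte markers to 1364 to 13012 CPM against 38.6 to 572 CPM in PSCs and 16.7 to 81.9 CPM in NG2-dsRed+ cells. All 11 of the latter had counts in each cell type. Some PSC libraries held RNA of other marker genes too. The sum of 8 chondrocyte and tenocyte markers was 4739.5 CPM in PSC library 31, against a PSC median of 23.2 CPM. For 6 erythroid markers the sums were 7404 and 5513 CPM in PSC libraries 31 and 34, against a PSC median of 295 CPM. Whether this RNA came from other cells, from free RNA or from the sorted cells themselves was not tested. In bulk libraries fewer cells of a type and less RNA per cell cannot be told apart, so a low level of a factor in S100β-GFP+ libraries is a level per library and not per Schwann cell. PSC library 18 had 14616 genes with a count, against 20203 to 22533 in the other PSC libraries. S100β-GFP+ libraries 14, 17 and 22 had 25890, 29103 and 38568, against 19669 to 23292 in the other libraries of that group. Values without these libraries are given where they differ.

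PSCs had higher levels of 7 members than S100β-GFP+ cells did, and the same 7 were higher in PSCs than in NG2-dsRed+ cells: Sox10, Foxd3, Sox2, Pou3f1, Pou3f2, Zeb2 and Tead1. Nfatc4 was lower in PSCs in both comparisons, and Egr2 was called in neither. Over all genes tested 47% were called between PSCs and S100β-GFP+ cells (22.9% higher and 24.1% lower in PSCs; edgeR's quasi-likelihood test, adjusted p under 0.05), and 44% between PSCs and NG2-dsRed+ cells (20.9% and 23.1%). Of all genes 13.9% were higher in PSCs in both comparisons, and 14.4% lower in both. The median log2 difference of the 9 tested members was 3.40 relative to S100β-GFP+ cells and 5.90 relative to NG2-dsRed+ cells, where the medians of all genes were 0.04 and 0.02. Both comparisons use the same PSC libraries. Sox2 and Pou3f2 passed the filter on low counts only through the PSC libraries, where they are high. The filter thus favoured a higher call for them, and their place in these counts and medians is no separate support. Nfatc4 likewise passed through the other cell types, where it is higher. In 6 of the members, Sox10, Foxd3, Sox2, Pou3f1, Pou3f2 and Zeb2, every PSC library was above every other library. Of all genes tested 5.24% had PSC libraries wholly above the S100β-GFP+ libraries and 5.08% wholly above the NG2-dsRed+ libraries. In Nfatc4 every PSC library was below every other library, as was the case for 10.3% of all genes against the S100β-GFP+ libraries and 8.83% against the NG2-dsRed+ libraries. Between S100β-GFP+ and NG2-dsRed+ cells 7 members were called higher and 2 lower, where 33.3% of all genes were called (18.1% higher and 15.2% lower). The ranges of these cell types overlapped for all 10 members, whereas 7.21% of all genes had S100β-GFP+ libraries wholly above and 4.38% wholly below the NG2-dsRed+ libraries.

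**Figure D1:**
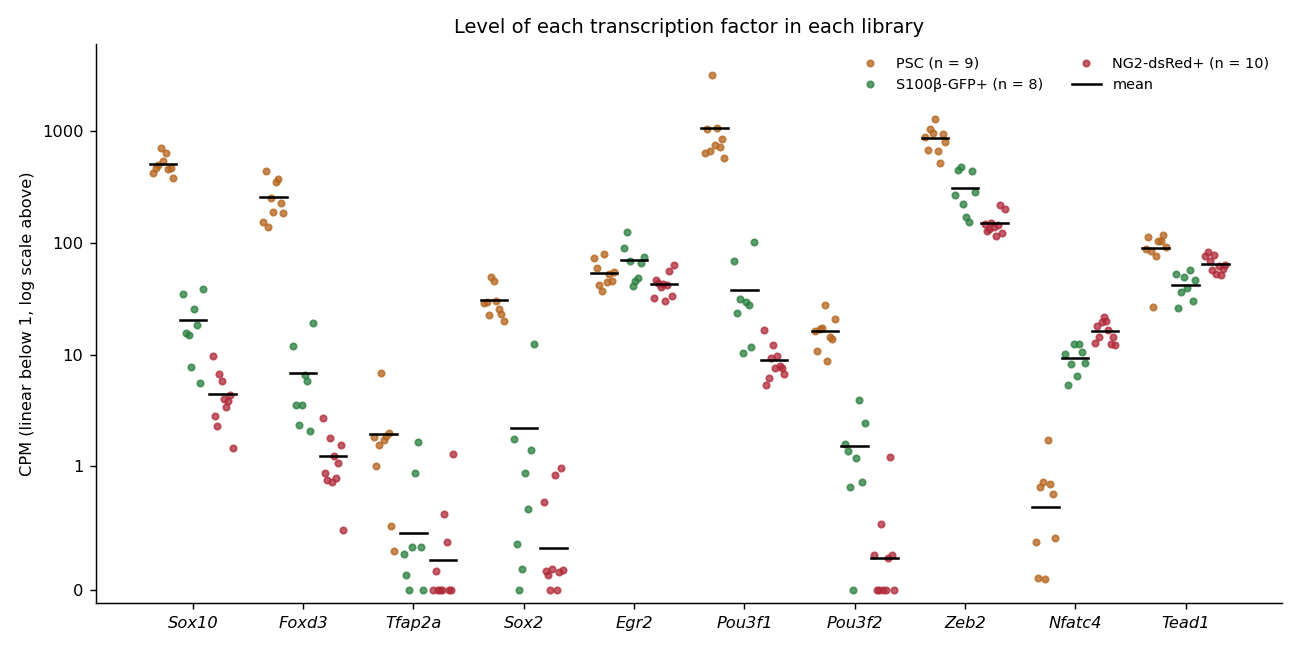
CPM of the 10 factors (y axis, linear below 1 and logarithmic above) in each library of PSCs, S100β-GFP+ cells and NG2-dsRed+ cells. Points are libraries and black bars are means. The PSC points lie above all others for Sox10, Foxd3, Sox2, Pou3f1, Pou3f2 and Zeb2, below all others for Nfatc4, and among the others for Egr2.

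Sox10, the factor that defines the lineage, was present at high levels in PSCs. Its level in PSC libraries was 379 CPM at the lowest, 467 CPM at the median and 703 CPM at the highest, with a mean of 506 ± 103 CPM (n = 9). S100β-GFP+ libraries had 5.57 to 38.8 CPM with a median of 16.9 CPM, and NG2-dsRed+ libraries 1.46 to 9.79 CPM with a median of 3.91 CPM. All PSC libraries were far above the others, and the S100β-GFP+ and NG2-dsRed+ ranges overlapped. Sox10 was 25.1-fold higher in PSCs than in the S100β-GFP+ cells (log2 4.65 ± 0.37 SE, adjusted p = 1.46e-11) and 114-fold higher than in NG2-dsRed+ cells (log2 6.83 ± 0.37 SE, adjusted p = 6.96e-15). It was also 4.53-fold higher in S100β-GFP+ than in NG2-dsRed+ cells (adjusted p = 3.07e-06), with 6 of 8 libraries above all NG2-dsRed+ libraries. The mean in S100β-GFP+ cells was 3.99% of that in PSCs. Within the S100β-GFP+ group the highest Sox10 was in library 33, which had the highest sum of Schwann lineage markers (2087 CPM), and the lowest in library 27 with a sum of 750.2 CPM. In NG2-dsRed+ cells both were highest in library 2, with a sum of 478 CPM. Melanocytes, which also express Sox10, were looked for by 7 markers, whose sum was 32.1 to 136 CPM in PSCs and at most 21.6 CPM in any other library. Most of it was Dct (61.0 CPM on average) and Tyrp1 (19.0 CPM), while Tyr and Mlana were each at 0 in 8 of 9 PSC libraries. Of the 7 markers 3 passed the filter, and 2 of these were called higher in PSCs in each comparison. The part of melanocytes in the PSC level of Sox10 was not tested.

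Foxd3, a forkhead factor that keeps neural crest cells and Schwann cell precursors undifferentiated, was the member with the largest difference in both comparisons. PSC libraries had 139 to 436 CPM with a median of 229 CPM (mean 256 ± 106 CPM, n = 9). S100β-GFP+ libraries had 2.09 to 19.1 CPM with a median of 4.64 CPM, and NG2-dsRed+ libraries 0.485 to 2.70 CPM with a median of 1.00 CPM. In NG2-dsRed+ cells these levels rest on 3 to 19 counts per library. Foxd3 was 37.7-fold higher in PSCs than in the S100β-GFP+ cells (log2 5.24 ± 0.41 SE, adjusted p = 1.38e-11) and 203-fold higher than in NG2-dsRed+ cells (log2 7.66 ± 0.43 SE, adjusted p = 1.06e-14). It was 5.38-fold higher in S100β-GFP+ than in NG2-dsRed+ cells (adjusted p = 1.15e-05). Foxd3 was less even among PSC libraries than Sox10. It was highest in PSC libraries 6, 31 and 23, the 3 PSC libraries in which Lars2, Gm23935 and Gm15564 together took the largest share of counts (31.5%, 31.6% and 36.6%). It was 139 to 190 CPM in libraries 4, 12, 20 and 36, where that share was 3.64% to 9.66%. With the share as a term in the fit the difference between PSCs and S100β-GFP+ cells was 5.70 on the log2 scale (adjusted p = 3.49e-13). That term also gave a larger difference for Sox10, Sox2, Pou3f1 and Tead1. It gave a smaller one for Pou3f2 (2.96 in place of 3.40) and Zeb2 (1.17 in place of 1.49). Foxd3 has a single exon, chr4:99656299-99658622 (GRCm38, + strand).

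Sox2, an inhibitor of myelination that marks immature Schwann cells, was present in all PSC libraries at 20.0 to 49.2 CPM with a median of 29.0 CPM (mean 30.5 ± 10.2 CPM, n = 9). It was at 0 in 1 S100β-GFP+ and in 2 NG2-dsRed+ libraries. S100β-GFP+ libraries other than library 33 had at most 1.74 CPM, whereas library 33 had 12.4 CPM. NG2-dsRed+ libraries had at most 0.990 CPM, which is 7 counts. Sox2 was 14.4-fold higher in PSCs than in the S100β-GFP+ cells (log2 3.85 ± 0.64 SE, adjusted p = 1.07e-05) and 84.2-fold higher than in NG2-dsRed+ cells (log2 6.40 ± 0.69 SE, adjusted p = 9.03e-09). Without S100β-GFP+ library 33 the first of these was 5.32 on the log2 scale (adjusted p = 2.81e-09). The difference of 2.55 between S100β-GFP+ and NG2-dsRed+ cells (adjusted p = 0.00625) was 1.07 without that library (adjusted p = 0.178), so the call rested on it. Sox2 lies inside Sox2ot, a long noncoding RNA gene of the same strand with which it shares no exon bases and which had 655 counts over all libraries against 2479 for Sox2.

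Tfap2a, which encodes AP-2α and acts in the neural crest and in early Schwann cell precursors, was close to the limit of detection. It had 3 to 39 counts per library in PSCs, 0 to 10 in S100β-GFP+ cells and 0 to 8 in NG2-dsRed+ cells, with 2 and 6 libraries at 0 in the latter groups. PSC levels were 0.316 to 2.00 CPM apart from library 18, which had 6.83 CPM. In the fit without a filter on low counts Tfap2a was 2.09 higher on the log2 scale in PSCs than in the S100β-GFP+ cells (adjusted p = 0.0443) and 2.89 higher than in NG2-dsRed+ cells (adjusted p = 0.00642). The ranges of the 3 cell types overlapped. The antisense genes Gm47061, Gm26688 and Gm47067 lie over its exons and had 19, 35 and 2 counts over all libraries against 175 for Tfap2a. Whether strand was used in counting is unknown here, and so is how reads over the shared bases were assigned.

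RefSeq promoter windows (GRCm38.p6) were at hand for 7 of the 10 members, all but Sox10, Pou3f1 and Tead1. The 250 bases before a start site are shown for 3 members that were higher in PSCs in both comparisons (Foxd3, Sox2, Pou3f2), for the 1 that was lower (Nfatc4) and, since POU factors and SOX10 act on Egr2, for an Egr2 start site. Capitals mark matches, on either strand, to ACAAAG or ACAATG (SOX factors), ATGCAAAT (the octamer of POU factors), GCGTGGGCG or GCGGGGGCG (EGR factors), GCCNNNGGC (AP-2), GGAATG (TEAD) and CACCTG (ZEB). None of the 5 windows overlaps an exon in GENCODE M21.
Foxd3, chr4:99656049-99656298, + strand: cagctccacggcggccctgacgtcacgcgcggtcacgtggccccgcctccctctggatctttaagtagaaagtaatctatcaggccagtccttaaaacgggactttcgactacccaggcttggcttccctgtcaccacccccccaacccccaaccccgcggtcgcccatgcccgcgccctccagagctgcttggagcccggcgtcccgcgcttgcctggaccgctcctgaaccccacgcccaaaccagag
Sox2, chr3:34649745-34649994, + strand: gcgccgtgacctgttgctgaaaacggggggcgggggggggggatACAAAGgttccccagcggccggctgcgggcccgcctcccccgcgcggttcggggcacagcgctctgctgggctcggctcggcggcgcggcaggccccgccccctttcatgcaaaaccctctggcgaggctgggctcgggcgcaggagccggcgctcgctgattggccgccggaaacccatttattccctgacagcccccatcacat
Pou3f2, chr4:22488367-22488616, - strand: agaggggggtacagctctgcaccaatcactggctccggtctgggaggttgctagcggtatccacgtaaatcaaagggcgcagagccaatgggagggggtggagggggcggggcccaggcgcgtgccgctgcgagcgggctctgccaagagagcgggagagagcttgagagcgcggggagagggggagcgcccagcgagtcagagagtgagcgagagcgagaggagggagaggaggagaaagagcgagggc
Egr2, chr10:67537619-67537868, + strand: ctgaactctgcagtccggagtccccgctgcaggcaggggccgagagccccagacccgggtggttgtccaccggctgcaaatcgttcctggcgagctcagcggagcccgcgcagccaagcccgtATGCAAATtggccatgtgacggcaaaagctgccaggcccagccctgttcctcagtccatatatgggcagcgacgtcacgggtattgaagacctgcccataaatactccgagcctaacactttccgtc
Nfatc4, chr14:55824545-55824794, + strand: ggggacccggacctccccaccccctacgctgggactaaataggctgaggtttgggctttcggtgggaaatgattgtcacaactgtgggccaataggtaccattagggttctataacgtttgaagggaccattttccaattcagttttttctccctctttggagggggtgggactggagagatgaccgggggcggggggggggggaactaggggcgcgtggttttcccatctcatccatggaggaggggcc
The Sox2 window held 1 ACAAAG, a word found in 16.5% of the 32851 mouse promoter windows of this length. The Egr2 window shown held 1 ATGCAAAT, found in 1.60% of the windows. There were 5 Egr2 windows, of which 3 that overlap each other held this word and 2 did not, and the one shown was picked after the matches were seen, so the match is not to be read against that share. In the windows of Foxd3, Pou3f2 and Nfatc4 none of these words occurred, which says only that these letters are not within this distance of these start sites. The windows of Foxd3, Sox2 and Pou3f2 held 21, 27 and 18 CpG dinucleotides, that of Egr2 17 and that of Nfatc4 8, where the median of all windows was 6.

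Pou3f1, the gene for Oct-6 (SCIP), a factor of promyelinating Schwann cells, had the highest mean level per kilobase of exon of any member in PSCs (273 CPM per kb). PSC libraries had 570.4 CPM at the lowest, 744 CPM at the median and 3179 CPM at the highest. The highest was library 18, and the other 8 were at or below 1068 CPM. S100β-GFP+ libraries had 10.2 to 102 CPM with a median of 28.7 CPM, and NG2-dsRed+ libraries 5.35 to 16.5 CPM with a median of 7.77 CPM. No S100β-GFP+ or NG2-dsRed+ library reached the level of any PSC library. Pou3f1 was 27.7-fold higher in PSCs than in the S100β-GFP+ cells (log2 4.79 ± 0.46 SE, adjusted p = 5.44e-10) and 118-fold higher than in NG2-dsRed+ cells (log2 6.88 ± 0.46 SE, adjusted p = 4.71e-13). Without library 18 these were 4.42 and 6.54 on the log2 scale. It was 4.27-fold higher in S100β-GFP+ than in NG2-dsRed+ cells (adjusted p = 7.45e-05). Library 18 also had the highest Sox10, Sox2 and Tfap2a of the PSC libraries, as well as the highest sums of macrophage (572 CPM) and skeletal muscle fibre markers (1405 CPM) among them. The antisense gene Gm2164 shares 330 exon bases with Pou3f1 and had 127 counts over all libraries against 76908.

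Pou3f2, the gene for Brn2, which overlaps with Oct-6 in function, followed the same pattern at a lower level. PSC libraries had 8.77 to 27.9 CPM with a median of 16.1 CPM, S100β-GFP+ libraries 0 to 3.95 CPM with a median of 1.28 CPM, and NG2-dsRed+ libraries 0 to 1.22 CPM with 5 of 10 libraries at 0. It was 10.6-fold higher in PSCs than in the S100β-GFP+ cells (log2 3.40 ± 0.54 SE, adjusted p = 5.31e-06) and 59.6-fold higher than in NG2-dsRed+ cells (log2 5.90 ± 0.59 SE, adjusted p = 1.79e-09). It was 5.64-fold higher in S100β-GFP+ than in NG2-dsRed+ cells (adjusted p = 0.00167). Per kilobase of exon, Pou3f1 was above Pou3f2 in all 9 PSC libraries, by 38.7 to 269 times with a median of 73.1.

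Egr2, the gene for Krox20, the factor that POU proteins and SOX10 switch on at the onset of myelination, did not follow them. PSC libraries had 36.8 to 78.6 CPM with a median of 52.9 CPM (mean 54.1 ± 14.1 CPM, n = 9). S100β-GFP+ libraries had 41.1 to 124 CPM with a median of 67.5 CPM, and NG2-dsRed+ libraries 30.4 to 62.9 CPM with a median of 42.2 CPM. The 3 ranges overlapped. Egr2 differed by -0.37 on the log2 scale between PSCs and S100β-GFP+ cells (SE 0.20, adjusted p = 0.133), an interval of -0.76 to 0.02. Against NG2-dsRed+ cells it differed by 0.34 (SE 0.19, adjusted p = 0.154), an interval of -0.03 to 0.71. These intervals do not hold a 2-fold difference in either direction, whereas Sox10 differed 25.1-fold and 114-fold in the same comparisons. Egr2 was higher in S100β-GFP+ than in NG2-dsRed+ cells by 0.71 (SE 0.19, adjusted p = 0.00532). The value against S100β-GFP+ cells moved with the libraries and the scaling. It was -0.59 without S100β-GFP+ libraries 14, 17 and 22 (adjusted p = 0.0211), which called Egr2 lower in PSCs, and 0.13 when libraries were scaled by their totals alone (adjusted p = 0.645), a scaling that moved the median of all genes by 0.50. Against NG2-dsRed+ cells it was 0.47 without PSC library 18 (adjusted p = 0.0444), 0.48 without NG2-dsRed+ library 35 (adjusted p = 0.0440) and 0.61 with totals alone (adjusted p = 0.0200).

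**Figure D2:**
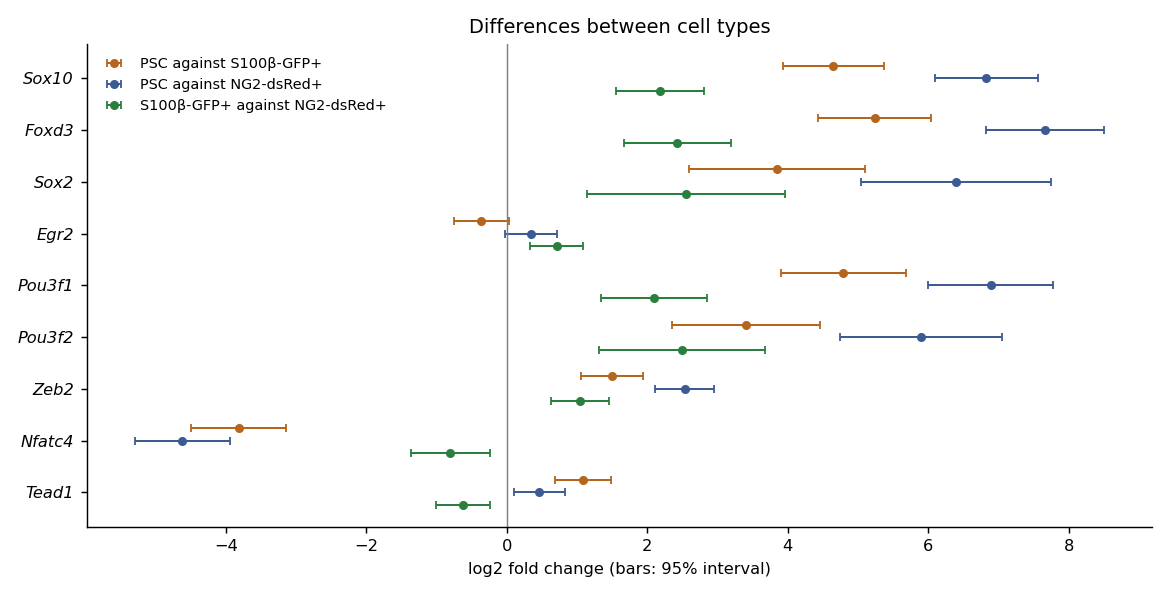
Log2 difference between cell types for the 9 tested factors (x axis); points are edgeR estimates and bars 95% intervals. The intervals of Egr2 in both PSC comparisons include 0, while those of Sox10, Foxd3, Sox2, Pou3f1, Pou3f2 and Zeb2 lie above 1.

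Egr2 is also an immediate early gene and is made by macrophages. In the S100β-GFP+ group Egr2 was 41.1, 45.9 and 48.1 CPM in libraries 14, 17 and 22, in which the sum of macrophage markers was lowest (4116, 2739 and 1364 CPM). It was 65.8 to 124 CPM in the other 5 libraries, whose sums were 6596 to 13012 CPM. The library with the highest sum, library 3, had the highest Egr2. These 3 libraries also stand apart in genes detected and in other markers. The sum of 8 endothelial markers was 699, 2796 and 1450 CPM in libraries 14, 17 and 22 and 41.9 to 133 CPM in the other 5, and that of 6 erythroid markers 21467, 131313 and 55273 CPM, against 24.9 to 2432 CPM in 4 of the others and 25056 CPM in library 3. The part of any of these in the result was not tested. In PSC libraries the sums of macrophage markers were 38.6 to 572 CPM where Egr2 was 36.8 to 78.6 CPM. The highest of these sums and the lowest Egr2 were both in PSC library 18, which had the fewest genes detected. The part of macrophage RNA in the PSC level of Egr2 was not tested.

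Zeb2, the gene for Sip1, a repressor that removes inhibitors of myelination, was higher in PSCs by less than Sox10, Foxd3, Sox2, Pou3f1 and Pou3f2 were. PSC libraries had 519 to 1287 CPM with a median of 878 CPM (mean 863 ± 231 CPM, n = 9). S100β-GFP+ libraries had 154 to 480 CPM with a median of 274 CPM, and NG2-dsRed+ libraries 116 to 216 CPM with a median of 141 CPM. The lowest PSC library was above the highest of the others. Zeb2 was 2.81-fold higher in PSCs than in the S100β-GFP+ cells (log2 1.49 ± 0.22 SE, adjusted p = 2.37e-06), 5.77-fold higher than in NG2-dsRed+ cells (log2 2.53 ± 0.22 SE, adjusted p = 7.72e-11), and 2.05-fold higher in S100β-GFP+ than in NG2-dsRed+ cells (adjusted p = 0.000275). Zeb2 is strongly expressed by macrophages. In the S100β-GFP+ group it was 154, 169 and 221 CPM in libraries 22, 17 and 14, the 3 with the lowest macrophage sums, and 265 to 480 CPM in the other 5. Macrophage markers moved with Zeb2 in this group, and their part in its level there was not tested. In PSCs the sums were 38.6 to 572 CPM where Zeb2 was 519 to 1287 CPM. The part of macrophage RNA in the PSC level was not tested either. The antisense gene Zeb2os shares 653 exon bases with Zeb2 and had 1788 counts over all libraries against 94971.

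**Figure D3:**
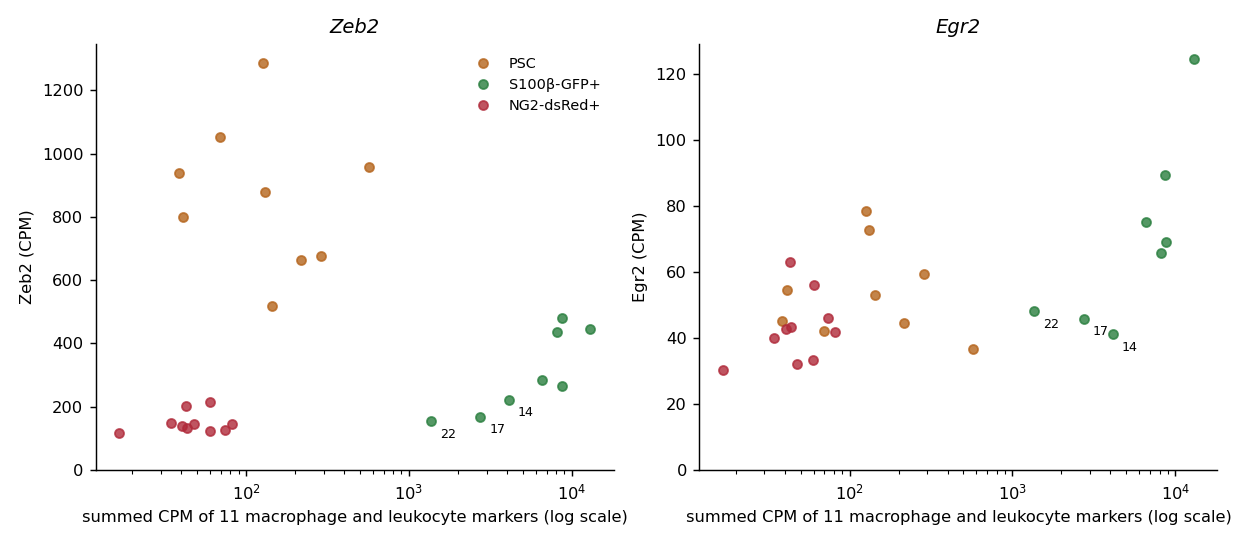
CPM of Zeb2 (left) and Egr2 (right) in each library against the summed CPM of 11 macrophage and leukocyte markers (x axis, log scale). Numbers mark S100β-GFP+ libraries 14, 17 and 22. PSC libraries combine high Zeb2 (519 to 1287 CPM) with low marker sums (38.6 to 572 CPM), and in the S100β-GFP+ group the 3 numbered libraries are lowest in both genes.

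Nfatc4, a calcineurin-activated factor that acts with SOX10 on Egr2 and myelin genes, ran the other way. PSC libraries had 0.0956 to 1.72 CPM, which is 1 to 11 counts per library. S100β-GFP+ libraries had 5.37 to 12.4 CPM and NG2-dsRed+ libraries 12.1 to 21.7 CPM. It was 14.1-fold lower in PSCs than in the S100β-GFP+ cells (log2 -3.82 ± 0.34 SE, adjusted p = 1.90e-10) and 24.6-fold lower than in NG2-dsRed+ cells (log2 -4.62 ± 0.34 SE, adjusted p = 4.92e-12). S100β-GFP+ libraries also held RNA of fibroblast, macrophage and leukocyte markers at the sums given above. Pericyte and smooth muscle markers summed to 7597 to 16343 CPM in NG2-dsRed+ cells. The part of other cell types in these differences of Nfatc4 was not tested. The difference between S100β-GFP+ and NG2-dsRed+ cells was -0.80 (SE 0.29, adjusted p = 0.0317), and the call was lost without any 1 of 7 libraries (S100β-GFP+ 3, 11, 17 or 33, or NG2-dsRed+ 13, 15 or 21), with values of -0.79 to -0.72.

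Tead1, a partner of YAP and TAZ that is needed for myelination, differed least among the members that were called. PSC libraries had 76.7 to 116 CPM apart from library 18, which had 26.8 CPM. S100β-GFP+ libraries had 26.1 to 56.6 CPM and NG2-dsRed+ libraries 51.6 to 83.1 CPM. All PSC libraries but library 18 were above every S100β-GFP+ library. Tead1 was 2.12-fold higher in PSCs than in the S100β-GFP+ cells (log2 1.08 ± 0.20 SE, adjusted p = 5.38e-05) and lower in S100β-GFP+ than in NG2-dsRed+ cells by 0.62 (adjusted p = 0.0141). The difference between PSCs and NG2-dsRed+ cells, 0.46 (SE 0.19, adjusted p = 0.0457), was near the threshold. It was 0.66 without PSC library 18 (adjusted p = 0.000278), and it was not called without any 1 of PSC libraries 6, 23, 31 or 34 or NG2-dsRed+ libraries 9, 13, 21, 26 or 30 (0.42 to 0.47, adjusted p = 0.0511 to 0.0792).

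The order of the factors, compared per kilobase of exon, differed between the cell types. In PSCs it was Pou3f1 (273 CPM per kb), Sox10 (166), Foxd3 (110.0), Zeb2 (43.3), Egr2 (15.9), Sox2 (14.8), Tead1 (6.57), Pou3f2 (2.91), Tfap2a (0.400) and Nfatc4 (0.116). Ranges of neighbours in this order overlapped except between Zeb2 and Egr2, Sox2 and Tead1, and Pou3f2 and Tfap2a. In S100β-GFP+ cells the order began with Egr2 (20.6 CPM per kb), Zeb2 (15.4), Pou3f1 (9.89) and Sox10 (6.62), and all neighbours overlapped. In NG2-dsRed+ cells Egr2 (12.6 CPM per kb), Zeb2 (7.49), Tead1 (4.78) and Nfatc4 (2.78) led, and Nfatc4 was above Pou3f1 in 9 of 10 libraries. Within single libraries the ratio of Pou3f1 to Egr2 per kilobase was 7.76 to 76.3 in PSCs (median 14.0), 0.156 to 1.20 in S100β-GFP+ cells (median 0.457) and 0.0930 to 0.451 in NG2-dsRed+ cells (median 0.203). The ratio of Sox10 to Egr2 was 6.42 to 21.3 in PSCs, and Egr2 was above Sox10 in all libraries of the other cell types, where this ratio was at most 0.626. Lengths are those of all annotated exons joined, so that a gene using a short isoform is understated.

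**Figure D4:**
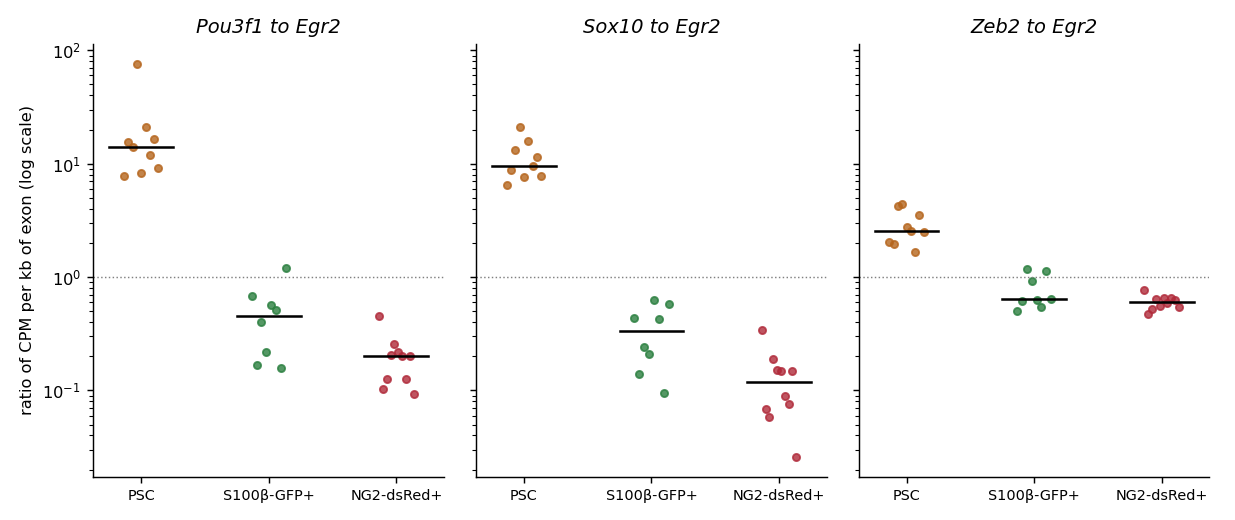
Ratio of Pou3f1, Sox10 and Zeb2 to Egr2 in CPM per kb of exon (y axis, log scale; dotted line, equal levels). Points are libraries and bars medians. All PSC libraries lie above 1 in each panel, and the others lie below it apart from 1 S100β-GFP+ library for Pou3f1 and 2 for Zeb2.

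The closest relatives of the members were set beside them. Of 24 paralogues 15 passed the filter, of which 7 were higher and 5 lower in PSCs than in the S100β-GFP+ cells, and 4 were higher and 7 lower than in NG2-dsRed+ cells. Of all genes tested 22.9% were higher and 24.1% lower in the first comparison, and 20.9% and 23.1% in the second. Pou3f4 (Brn4) was higher with Pou3f1 and Pou3f2, at 8.51 ± 3.84 CPM in PSCs, 0.468 ± 0.456 CPM in S100β-GFP+ cells and 0.203 ± 0.243 CPM in NG2-dsRed+ cells (log2 4.18 and 5.31, adjusted p = 1.16e-06 and 1.74e-08). Nfatc2, which like Nfatc4 is activated by calcineurin, ran opposite to Nfatc4. It was 129 to 278 CPM in PSCs and at most 44.0 CPM in any other library (log2 2.56 and 3.51, adjusted p = 4.39e-10 and 3.47e-13). Nfatc3 was lower in both comparisons as Nfatc4 was (log2 -0.63 and -0.74, adjusted p = 0.0336 and 0.00934), and so was Nfat5 (log2 -0.73 and -0.70, adjusted p = 0.000197 and 0.000216). Nfatc1 was called in neither (log2 0.31 and -0.07, adjusted p = 0.0818 and 0.731). Foxd1 was lower in PSCs in both comparisons (log2 -1.96 and -3.31, adjusted p = 0.00509 and 1.42e-05), opposite to Foxd3. Foxd2 was higher than in S100β-GFP+ cells (log2 1.85, adjusted p = 0.00114) and lower than in NG2-dsRed+ cells (log2 -1.02, adjusted p = 0.0337). Egr3 was 77.7 ± 25.0 CPM in PSCs and higher there in both comparisons (log2 1.85 and 1.41, adjusted p = 7.38e-08 and 1.85e-06), whereas Egr1 was not called against S100β-GFP+ cells (log2 -0.16, adjusted p = 0.523) and was lower than in NG2-dsRed+ cells (log2 -0.49, adjusted p = 0.0307). Of the SoxE relatives of Sox10, Sox9 was lower in PSCs (log2 -1.80 and -2.01, adjusted p = 0.00303 and 0.000857), and Sox8 was higher than in S100β-GFP+ cells (log2 0.91, adjusted p = 0.0195) and not called against NG2-dsRed+ cells (log2 -0.47, adjusted p = 0.193). Tead2 was higher with Tead1 (log2 1.60 and 0.54, adjusted p = 4.92e-07 and 0.0260). Tead4 was lower (log2 -1.75 and -2.89, adjusted p = 0.0144 and 0.000116), and Tead3 was not called (log2 0.32 and -0.56, adjusted p = 0.404 and 0.113). Zeb1 was higher in PSCs than in the S100β-GFP+ cells (log2 1.11, adjusted p = 9.61e-07) and differed by 0.10 from NG2-dsRed+ cells (adjusted p = 0.620).

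Partners and cofactors of the members were mixed. All 30 passed the filter, and 11 were higher and 5 lower in PSCs than in the S100β-GFP+ cells, while 8 were higher and 8 lower than in NG2-dsRed+ cells. The shares of all genes were 22.9% higher and 24.1% lower, and 20.9% and 23.1%. Against NG2-dsRed+ cells the list was thus near the shares of all genes. Rxrg, Sox6, Sox5 and Sox4 differed most from S100β-GFP+ cells. Rxrg, the gene for the retinoid X receptor γ, was 73.7 to 130.4 CPM in PSCs and at most 4.77 CPM elsewhere (log2 5.72 and 6.73, adjusted p = 9.25e-14 and 1.40e-15). Sox6, a SoxD factor that can compete with SOX10, was 85.0 to 173 CPM in PSCs and at most 25.1 CPM elsewhere (log2 4.42 and 2.58). Sox5 and Sox4 were higher in PSCs in both comparisons too (log2 3.25 and 2.18 against S100β-GFP+ cells, log2 1.28 and 1.68 against NG2-dsRed+ cells). Sox11, a SoxC gene like Sox4, was lower than in NG2-dsRed+ cells (log2 -1.55, adjusted p = 0.00475) and not called against S100β-GFP+ cells (log2 -0.52, adjusted p = 0.371). Sox13, the remaining SoxD gene, was lower than in NG2-dsRed+ cells (log2 -2.06, adjusted p = 2.64e-05) and not called against S100β-GFP+ cells (log2 -0.52, adjusted p = 0.263). Nab1, a coregulator of EGR2, was lower (log2 -0.74 and -1.78, adjusted p = 6.28e-05 and 1.04e-11), and its partner Nab2 was not called (log2 0.08 and 0.26, adjusted p = 0.758 and 0.262).

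Of 20 inhibitors of myelination and factors of repair cells 16 passed the filter, with 5 higher and 4 lower in PSCs than in the S100β-GFP+ cells, and 2 higher and 6 lower than in NG2-dsRed+ cells. Among all genes 22.9% were higher and 24.1% lower, and 20.9% and 23.1%. Etv1 and Etv5, ETS factors downstream of growth factor signals, had the largest differences from S100β-GFP+ cells. Etv1 was 221 to 499 CPM in PSCs, 6.79 to 20.1 CPM in S100β-GFP+ cells and 41.6 to 87.8 CPM in NG2-dsRed+ cells (log2 5.01 and 2.61, adjusted p = 2.11e-15 and 8.51e-12), and Etv5 had log2 differences of 3.53 and 2.64. Id2, an inhibitor of basic helix-loop-helix factors that ZEB2 represses, was lower in PSCs than in the S100β-GFP+ cells (log2 -2.69, adjusted p = 2.56e-10) and differed by -0.48 from NG2-dsRed+ cells (adjusted p = 0.0806). Runx1 was lower than in S100β-GFP+ cells (log2 -2.23, adjusted p = 4.17e-05). The Notch targets Hey1 and Hey2 were lower than in NG2-dsRed+ cells (log2 -2.72 and -2.38). Jun, which drives the repair state of Schwann cells, was 0.77 higher than in S100β-GFP+ cells (adjusted p = 0.000953) and differed by -0.11 from NG2-dsRed+ cells (adjusted p = 0.635).

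Target genes of SOX10 and EGR2 did not all move with Sox10 in PSCs. Of 30 targets 9 were higher and 3 lower in PSCs than in the S100β-GFP+ cells, 18 were not called, and their median log2 difference was -0.25. Of all genes 22.9% were higher and 24.1% lower there. Against NG2-dsRed+ cells 24 were higher in PSCs and 1 lower, with a median of 2.50, where the shares of all genes were 20.9% and 23.1%. In S100β-GFP+ cells 25 were higher than in NG2-dsRed+ cells and 1 lower (all genes, 18.1% and 15.2%). Erbb3, the neuregulin co-receptor of Schwann cells, came closest to Sox10 itself, with a difference of 4.49 (SE 0.38, adjusted p = 4.53e-11) from S100β-GFP+ cells and 7.00 (SE 0.39, adjusted p = 9.95e-15) from NG2-dsRed+ cells. Cadm4, an axon-glia adhesion molecule, and Gjc3, a connexin of glia, differed by 4.12 and 3.31 from S100β-GFP+ cells. The myelin genes Mbp and Mag were not called. Mbp was 413 ± 86.0 CPM in PSCs and 399 ± 189 CPM in S100β-GFP+ cells (log2 0.05, adjusted p = 0.925), and Mag 19.6 ± 4.72 and 28.5 ± 15.9 CPM (log2 -0.54, adjusted p = 0.210). Pmp22, another myelin gene, was higher in PSCs by 0.70 (adjusted p = 0.00226). Counts of Mag per count of Sox10 were 0.0165 to 0.0645 in PSC libraries (median 0.0377) and 0.734 to 3.06 in S100β-GFP+ libraries (median 1.44), and those of Erbb3 were 0.235 to 1.06 (median 0.715) and 0.450 to 1.29 (median 0.800). Mag was chosen for this after its values were seen. The 3 lower targets were Ugt8a, Drp2 and Abca2. When libraries were scaled by their totals alone 0 of 30 were called lower and 9 higher, and with the fit limited to PSCs and S100β-GFP+ cells 5 were called lower.

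**Figure D5:**
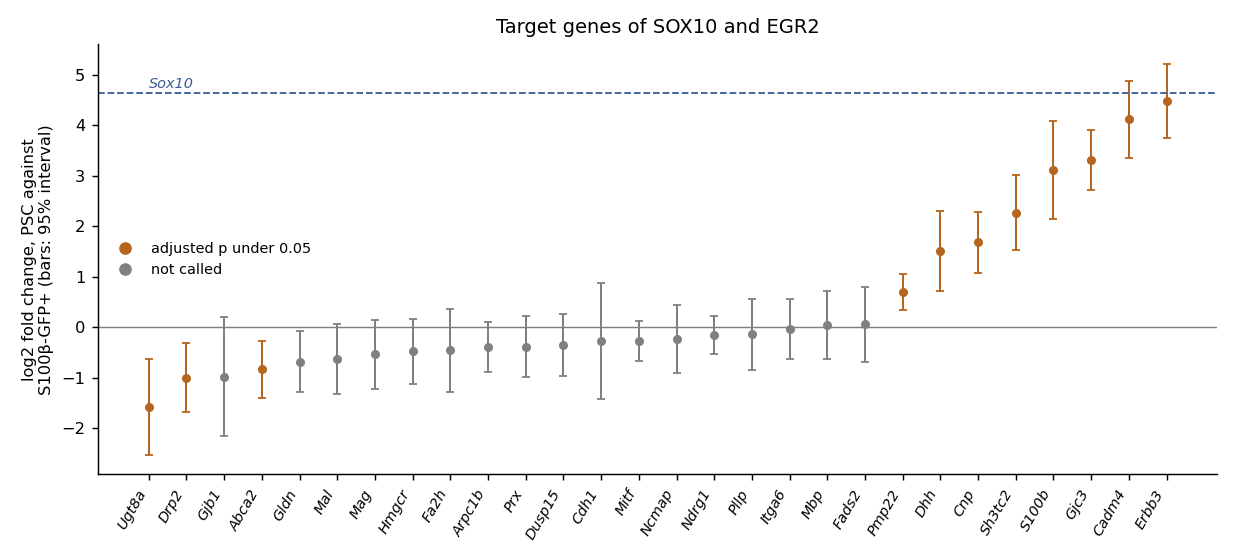
Log2 difference between PSCs and S100β-GFP+ cells for 28 of the 30 target genes of SOX10 and EGR2, in order of size; bars are 95% intervals and the dashed line is Sox10 (4.65). Targets from Pmp22 to Erbb3 lie above 0, while Mbp, Mag and 15 others are not called.

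Other transcription factors of the neural crest were mixed in direction. Of 12 listed, 7 passed the filter, with 4 lower and 1 higher in PSCs than in the S100β-GFP+ cells and 5 lower and 2 higher than in NG2-dsRed+ cells. All genes tested had 24.1% lower and 22.9% higher, and 23.1% and 20.9%. Twist1 was 0.0956 to 2.29 CPM in PSCs, 13.7 to 36.0 CPM in S100β-GFP+ cells and 5.52 to 19.9 CPM in NG2-dsRed+ cells (log2 -4.76 and -3.71, adjusted p = 6.24e-11 and 4.33e-09). Snai1, Snai2 and Msx1 were lower too (log2 -1.62, -1.28 and -1.55 against S100β-GFP+ cells, and -3.56, -2.80 and -3.07 against NG2-dsRed+ cells). Twist1, Snai1, Snai2 and Msx1 are also expressed by fibroblasts or mural cells, and 12 pericyte and smooth muscle markers summed to 1080 to 1785 CPM in PSCs against 7597 to 16343 CPM in NG2-dsRed+ cells, with the fibroblast sums given above. Their part in these differences was not tested. The gene that was higher than in S100β-GFP+ cells was Ets1 (log2 0.98, adjusted p = 0.0345), which was lower than in NG2-dsRed+ cells (log2 -1.39, adjusted p = 0.00225). Lef1, a factor of Wnt signalling, was 2.28 higher than in NG2-dsRed+ cells (adjusted p = 0.00298) and not called against S100β-GFP+ cells (log2 0.39, adjusted p = 0.624). Mitf, the melanocyte factor that SOX10 activates, differed by -0.27 from S100β-GFP+ cells (adjusted p = 0.288) and was 1.17 higher than in NG2-dsRed+ cells (adjusted p = 1.48e-05). Pax3, which acts with SOX10 in the neural crest, did not pass the filter.

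Since Egr2 responds to stimulation, immediate early genes were set beside it. Of 18, 12 were lower and 1 higher in PSCs than in the S100β-GFP+ cells, and 15 were lower and 0 higher than in NG2-dsRed+ cells (edgeR; Fos, Jun and Klf6 were not called at an adjusted p under 0.05). For all genes the shares were 24.1% lower and 22.9% higher, and 23.1% and 20.9%. Fosl1, Fosl2, Klf4 and Zfp36 differed most from S100β-GFP+ cells (log2 -3.18, -2.18, -2.04 and -1.59), and Fosl2, Btg2, Zfp36 and Klf2 from NG2-dsRed+ cells (log2 -2.25, -1.85, -1.71 and -1.32). The 1 gene that was higher was Jun. Whether responses to dissociation and sorting differed between the cell types was not tested.

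Genes were ranked by the likeness of their levels to 3 of the members over the 27 libraries, as a description, since the points share library scaling and fall into 3 cell types. The genes most like Sox10 were Foxd3 (Pearson r = 0.989), Pou3f1 (r = 0.989), Erbb3 (r = 0.983), Cadm1 (r = 0.983) and Gpr37l1 (r = 0.982), so 2 of the 5 closest genes among all tested were members. Those most like Foxd3 were Sox10, Gpr37l1, Erbb3, Gpm6b and Fzd1 (r = 0.982 to 0.989). Nfatc4 was near the other end for Sox10 (r = -0.933). Egr2 had r = 0.168 with Sox10, and the genes most like it were Erp29, Trps1, Mpp6, Add3 and Rgs2 (r = 0.769 to 0.802), none of which is on the lists used here.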

How the data were processed

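RNA of cells sorted from muscle was converted and amplified with the SMART-Seq v4 kit. After adaptor and quality trimming the authors used HISAT2 for alignment and HTSeq for counting on genes. The table they deposited holds raw counts as whole numbers. Per the labels' processing notes the build was GRCm38. The sources used here give neither tool versions nor whether strand was used. Columns were matched to samples by library number, for 27 of 36 labelled libraries, and the other 9 were not analysed here. The paper's methods state that failed samples were removed, without naming them. They keep fewer S100β-GFP+ replicates than the 8 libraries of that group in the table. The upper age in the labels runs from P21 to P46 over the samples. It rises by 1 day per library number until it reaches P46, which may be an error of entry, and age was not used in any fit. No 2 columns were identical, and each pair within a cell type differed by more than sampling noise (lowest chi-square 8.10 per degree of freedom).

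Differences were tested in R 4.3.3 with edgeR 4.0.16: TMM scaling, filterByExpr (minimum count 10), 1 quasi-likelihood fit to all 3 cell types, and adjusted p-values by Benjamini-Hochberg over the 15330 genes tested, called under 0.05. CPM used TMM-scaled totals, and log2 CPM for correlations a prior count of 2. At totals of 5221655 to 9592875 counts, levels near 1 CPM rest on few counts, and intervals cover the spread between these libraries only. Symbols, positions and exon lengths came from GENCODE M21, which matched 99.7% of the identifiers. Alternatives were DESeq2 1.42.0 (Wald test), limma-voom (limma 3.58.1) with quality weights, DESeq2 size factors, other filters, fits of only the cell types compared, a term for the share taken by Lars2, Gm23935 and Gm15564 together, leaving out S100β-GFP+ libraries 14, 17 and 22, and leaving out each library in turn. Scaling by totals alone, and leaving out those 3 libraries with PSC library 18, were added after seeing the data. The fit was tested on simulated counts with 200 changed genes.

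The 10 members, the lists and the markers were chosen with earlier results of these data known. The rule for named genes took all members, from each other list up to 4 called genes with the largest difference from each cell type, paralogues that passed the filter, and the 5 genes most like Sox10, Foxd3 and Egr2. Other genes named (Nab2, Sox11, Ets1, Lef1, Jun, Mbp, Mag, Pmp22, Ugt8a, Drp2, Abca2, Mitf, Pax3, Fos, Klf6, Dct, Tyrp1, Tyr, Mlana) and the promoter words were chosen after values were seen. Promoter windows came from RefSeq (GRCm38.p6). Of the listed target genes 2 count in the totals but are not reported here.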

Additional observations from a re-analysis of the deposited data

Results flagged for a closer look

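In 7 cases a value lay far from the rest of their group, judged by the gap to the nearest library relative to the range of the group. This was asked of 30 groups of libraries (10 factors in 3 cell types), of which chance gives about 1 in 20. Of these 3 were in PSC library 18, the one with the fewest genes detected: Pou3f1 was 3179 CPM with the next at 1068 CPM, Tfap2a was 6.83 CPM with the next at 2.00 CPM, and Tead1 was 26.8 CPM with the next at 76.7 CPM. Sox2 was 12.4 CPM in S100β-GFP+ library 33, where the next library had 1.74 CPM. Nfatc4 was 1.72 CPM in PSC library 23, with the next at 0.876 CPM. In NG2-dsRed+ cells Pou3f2 was 1.22 CPM in library 28 with the next at 0.534 CPM, and Tfap2a was 1.29 CPM in library 35 with the next at 0.618 CPM. The last 3 of these rest on 11 counts or fewer.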

How the results depend on the processing

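Of 754 refitted differences of single members 725 kept their side of the threshold, 21 lost the call and 8 gained it, and none that was called reversed. The 725 include Egr2 between PSCs and S100β-GFP+ cells with totals alone, which changed sign from -0.37 to 0.13 and was called in neither fit. The calls of Sox10, Foxd3, Pou3f1, Pou3f2 and Zeb2 held in all 3 comparisons under every alternative that tested them, and those of Sox2, Nfatc4 and Tead1 in the comparison of PSCs with S100β-GFP+ cells. The members lower in PSCs than in S100β-GFP+ cells became 2, with Egr2, with the share of counts on 3 genes as a term (-0.56, adjusted p = 0.0195), without S100β-GFP+ libraries 14, 17 and 22, and without these and PSC library 18 (-0.53, adjusted p = 0.0294). Leaving out 1 library, the members lower in S100β-GFP+ than in NG2-dsRed+ cells ranged from 1 to 2. With no filter on low counts 16556 of 44705 genes were called between PSCs and S100β-GFP+ cells in place of 7198, and 10586 between S100β-GFP+ and NG2-dsRed+ cells in place of 5099, the fit then testing more genes. Tead1 lost its call against NG2-dsRed+ cells with no filter (adjusted p = 0.0971) and with a mean of 5 counts as the filter (adjusted p = 0.0542). Egr2 was called higher in PSCs than in NG2-dsRed+ cells by limma-voom (0.46, adjusted p = 0.0227). Sox2 was not called between S100β-GFP+ and NG2-dsRed+ cells by limma-voom (1.46, adjusted p = 0.119), nor Egr2 with totals alone (0.49, adjusted p = 0.0890). Where no value is given for a cause, the cause was not tested. Scaling by totals alone moved the median of all genes by 0.50, 0.28 and -0.22 in the 3 comparisons, and the share of calls that were higher in the first cell type from 48.8% to 73.5%, 47.4% to 65.3% and 54.3% to 35.4%. No paired analysis was possible because the labels do not say which mouse a library came from. Libraries of different cell types may share a mouse, and the fits treated all libraries as independent. Tfap2a was too low to test with the filter used, and Sox2 and Pou3f2 were too low to test between S100β-GFP+ and NG2-dsRed+ cells when only these were fitted, which left 5 members higher.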
